A study of Homo sapiens with 15 samples.

Results

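The ribosomal protein genes were followed through cardiac differentiation of H1, an established line of human embryonic stem cells. Members were the protein-coding genes in GENCODE v44 named RPL or RPS with a number and an optional letter, X or L ending, together with RPLP0, RPLP1, RPLP2 and RPSA. Pseudogenes and the RPS6K kinases were left out. Of the 82 genes that met this rule, 81 were listed among the 48777 genes of the deposited tables, 49 of the large and 32 of the small subunit, and RPL10L was not analysed here. No member had a count of 0 in any library, and all 81 passed the filter on low counts in every comparison.

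Bulk RNA-seq of total RNA depleted of ribosomal RNA was performed on days 0, 4, 9, 11 and 20, giving 15 libraries, 3 biological replicates on each day. All cells shared the H1 background and were grown on the laminins LN-521 and LN-221, although day 0 appears in the sample table with LN-521 only. Day 0 cells were undifferentiated and kept in Nutristem medium. Day 4 cells had reached confluence, the point at which CHIR99021, an activator of Wnt signalling, was given in RPMI medium with B27 lacking insulin. Day 9 and day 11 cells had also received IWP2, an inhibitor of Wnt secretion, and day 20 cells were kept on afterwards without either agent. The culture and treatment notes in the labels time CHIR99021 and IWP2 differently, and the labels give day 9 where the methods list day 7. Throughout, the libraries are named by the replicate or plate in their labels, namely 1, 2 and 3 on day 0, then 1, 2 and 5 on day 4, then 2, 6_1 and one with no plate number on day 9, then 2, 5 and 6 on day 11, and 2, 2_3 and 6_1 on day 20. Labels 2 and 2_3 of day 20 both carry plate number 2, and whether these libraries came from the same plate is not stated. Values per library follow this order.

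Each ribosome joins a small subunit, which decodes the mRNA, to a large subunit, which forms peptide bonds, and each subunit holds one copy of most of its proteins. The mRNAs of these proteins often begin with a C followed by a run of pyrimidines, the 5′ terminal oligopyrimidine (TOP) motif, through which mTOR signalling and LARP1 set their translation and stability. Some family members have paralogs with a restricted expression, such as RPL3L in striated muscle and RPL39L in the testis.

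The starts of the members that carry the main findings are shown first, since the family is known for this motif. Annotated starts were found in the RefSeq promoter table (GRCh38.p14) for 64 of the 81 members. A C followed by at least 4 pyrimidines stood at an annotated start of 46 of these 64 (71.9%), against 1404 of all 27305 genes in the table (5.14%). The match was read on the gene's own strand, at the first base of the annotated start. The windows below hold 10 bases before and 20 bases from the annotated start, with the pyrimidine run in capitals. A member without the run also reached a log2 fold change of 0.73 from day 4 to day 9, close to that of RPL18 below. The first set holds the 5 members that rose most from day 4 to day 9, and each has the run.
RPL29, chr3:51995876-51995905, minus strand: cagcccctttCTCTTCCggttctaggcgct
RPS18, chr6:33272065-33272094, plus strand: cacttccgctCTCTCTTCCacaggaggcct
RPS14, chr5:150449720-150449749, minus strand: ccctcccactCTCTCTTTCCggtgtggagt
RPL13, chr16:89560672-89560701, plus strand: gggccgcttcCTTTCCgctcggctgttttc
RPL18, chr19:48619159-48619188, minus strand: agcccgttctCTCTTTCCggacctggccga

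The second set holds members that fell or did not follow the family, of which RPS10 and RPL36A have the run and RPL17, RPS26, RPS27L and RPL36AL have none at their annotated starts.
RPS10, chr6:34426050-34426079, minus strand: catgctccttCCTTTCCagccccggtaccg
RPL36A, chrX:101391001-101391030, plus strand: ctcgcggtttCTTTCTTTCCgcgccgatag
RPL17, chr18:49492446-49492475, minus strand: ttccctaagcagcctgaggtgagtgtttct
RPS26, chr12:56041908-56041937, plus strand: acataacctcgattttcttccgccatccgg
RPS27L, chr15:63157458-63157487, minus strand: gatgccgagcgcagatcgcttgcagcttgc
RPL36AL, chr14:49620607-49620636, minus strand: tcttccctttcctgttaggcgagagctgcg

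Library totals ran from 11990302 to 33469703 counts. The day 20 library 2_3 stood apart, with an RNA integrity number (RIN) of 6.1 against 8.8 to 10 in the others, and with counts on 48230 genes against 30886 to 39551. The main results that use day 20 are therefore also given without it. The summed level of 6 markers of pluripotent cells, such as POU5F1 and NANOG, was 4624 to 6651 TPM (a level per gene length that sums to the same total in every library) on day 0 and 66.6 to 108 TPM on day 20. The summed level of 8 markers of cardiomyocytes, such as MYH6 and TNNT2, was 22.9 to 26.0 TPM on day 0 and 5840 to 24780 TPM on day 20. In day 20 libraries 2, 2_3 and 6_1 it was 24780, 23828 and 5840 TPM. Markers of yolk sac or liver endoderm summed to 17489, 723 and 20628 TPM there, and mesenchymal markers to 2492, 1109 and 21724 TPM. On that day epithelial markers summed to 538 to 2335 TPM and endothelial markers to 96.8 to 560 TPM. Day 20 libraries thus held markers of several cell types. Genes of implied length under 200 bases took 29.2% of the TPM in day 0 library 3 and 22.7% in day 9 library 2, against 5.66% to 11.9% in the other 13 libraries, so every other TPM in those 2 libraries is lower than its counts alone would give.

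The share of all counts that fell on the 81 genes rose to a maximum on day 9 and then declined. It was 5.13%, 4.70% and 4.84% in the day 0 libraries, with a mean of 4.89% ± 0.22 (SD, n = 3). On day 4 it was 6.34%, 5.02% and 5.31%, with a mean of 5.56% ± 0.70 (SD, n = 3). The day 9 libraries stood at 7.86%, 8.39% and 7.55%, with a mean of 7.93% ± 0.43 (SD, n = 3), and each was above all 12 libraries of the other days. Day 11 gave 7.35%, 5.22% and 7.33%, with a mean of 6.63% ± 1.22 (SD, n = 3), so that library 5 lay among those of day 4. On day 20 the values were 4.50%, 2.55% and 5.79%, with a mean of 4.28% ± 1.63 (SD, n = 3), and the mean was 5.15% without library 2_3. No test was made of this share, since it is a sum over genes chosen as a family.

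**Figure D1:**
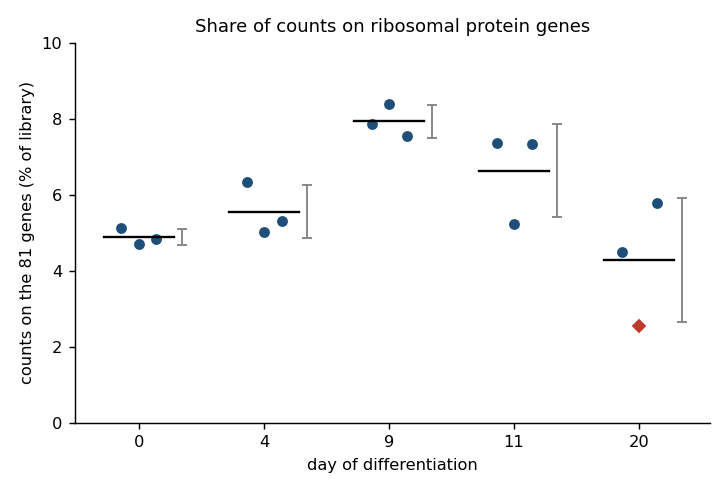
Percentage of each library's counts on the 81 ribosomal protein genes (y axis) by day of differentiation (x axis). Points are libraries, black lines are means of 3, grey bars are ± 1 SD, and the red diamond is day 20 library 2_3. The 3 day 9 libraries lie between 7.55% and 8.39%, above every other library.

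Both subunits followed the same course. The large subunit held 3.03% ± 0.14 of the counts on day 0, 4.92% ± 0.28 on day 9 and 2.72% ± 1.03 on day 20 (SD, n = 3 each). For the small subunit, the shares were 1.86% ± 0.08, 3.02% ± 0.15 and 1.57% ± 0.61 on the same days (SD, n = 3 each). Without library 2_3, the day 20 means were 3.27% and 1.88% (n = 2). In TPM, which divides by gene length, the 81 genes took 6.32% on day 0, 7.52% on day 4, 10.1% on day 9, 9.00% on day 11 and 6.26% on day 20, or 7.61% on day 20 without library 2_3.

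Libraries of one sequencing lane could be compared for days 4, 9, 11 and 20, since lanes 1, 2 and 5 each held 1 library of each of these days. The share of counts was higher on day 9 than on day 4 in each lane, by 2.84, 3.08 and 1.20 percentage points in lanes 1, 2 and 5. It was lower on day 11 than on day 9 in each lane, by 2.64, 1.06 and 0.20 points, where the last difference is smaller than the SD of day 9. Day 20 stood 0.57 points above day 11 in lane 1 and 4.78 and 2.85 points below it in lanes 2 and 5, and lane 2 held library 2_3. Day 0 shared only lane 1 with the other days, where the share was 4.84% on day 0, 5.02% on day 4 and 5.79% on day 20.

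The 1230 ribosomal protein pseudogenes listed in the tables took 0.98% to 1.48% of the members' counts in 14 libraries and 3.90% in day 20 library 2_3. Pseudogene and member share near-identical sequence, and how the counting treated reads that match several places is not stated, so the division of reads between them is uncertain.

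Members differed widely in level. Among the highest mean TPM over the 15 libraries were those of RPS12 (3398 TPM), RPL13A (3232), RPS27 (2825) and RPS18 (2779). By mean TPM, 29 members were among the 100 most expressed genes and 67 among the 500 most expressed. The lowest mean TPM belonged to RPL3L (1.74), RPL36A (14.7), RPS27L (19.5), RPL17 (19.6) and RPS10 (21.5). Exons of RPL36A, RPL17 and RPS10 overlap a readthrough gene on the same strand, which takes in 32.9% of the exon bases of RPL17 together with small nucleolar RNAs (RPL17-C18orf32), 8.40% of those of RPL36A (RPL36A-HNRNPH2) and 31.5% of those of RPS10 (RPS10-NUDT3). These overlaps are those of GENCODE v44, and the exons of the annotation used in counting may differ. RPS10-NUDT3 itself stood at 0.44 TPM in day 11 library 5, at 0.18 TPM in day 20 library 2 and at 0 TPM in the other libraries. How reads in shared exons were counted is not stated, and the part of this overlap in the values of these members was not tested. Across the 15 libraries, 69 of the 81 members had a Pearson correlation of at least 0.9 with the mean log2 CPM of the family, a description over libraries that share day and preparation. Those below 0.5 were RPL3L, RPS27L, RPS26, RPL36A, RPL17, RPL39L and RPS10. Each member was set against the family it belongs to, and 75 of the 81 had their lowest scaled count in day 20 library 2_3. The members' correlations without that library, and the share of all genes that reach 0.9, are not given here.

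Day 4 was compared with day 0, before differentiation was started. The test was edgeR's quasi-likelihood F test, fitted to the 6 libraries of both days, with Benjamini-Hochberg adjusted p-values that cover every gene tested. The background was no call in any direction, with 0% of the 20964 genes called higher and 0% called lower. None of the 81 members passed an adjusted p-value of 0.05 with edgeR, and 2 had an unadjusted p-value under 0.05. The log2 fold changes of members had a median of 0.17, beside −0.01 over all genes tested. With DESeq2 and with limma, the count was also 0.

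From day 4 to day 9, the interval that includes CHIR99021 and IWP2, 49 of the 81 members rose and 4 fell at an adjusted p-value under 0.05 (edgeR), and 28 did not pass. Over all 21252 genes tested, 24.3% were called higher and 24.7% lower, so 60.5% of members stand beside 24.3% in the upward direction and 4.94% beside 24.7% in the downward one. The median log2 fold change of the members was 0.43, beside 0.01 over all genes, and their standard errors lay between 0.11 and 0.38. The rise covered both subunits, with 32 of 49 large and 17 of 32 small subunit genes higher, and medians of 0.46 and 0.39. No member more than doubled, as the log2 fold changes reached 0.79 at most.

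RPL29, a large subunit protein on chromosome 3 from 51993522 to 51995895 (GRCh38), rose most. Its level was 1261, 914 and 1002 TPM in the day 4 libraries and 1611, 1995 and 1825 TPM on day 9, and the days did not overlap. Its log2 fold change was 0.79 (SE 0.15, edgeR adjusted p = 0.0033). RPS18, a protein of the small subunit head, stood at 2784, 2092 and 2327 TPM on day 4 and at 3555, 4402 and 4213 TPM on day 9. All 3 libraries of day 9 were again higher (log2 fold change 0.77 ± 0.15 SE, adjusted p = 0.00356, edgeR). RPS14, whose loss from one allele underlies the anaemia of the 5q deletion syndrome, rose from 620, 496 and 525 TPM to 810, 1037 and 920 TPM (log2 fold change 0.77, edgeR adjusted p = 0.00229). RPL13 (0.74) and RPL18 (0.73) completed the 5 largest increases, with adjusted p-values of 0.00405 and 0.00293 from edgeR.

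The members with known special roles did not move as one. RPL11, which with RPL5 and 5S rRNA forms the particle that binds MDM2, rose by 0.67 on the log2 scale (SE 0.14, edgeR adjusted p = 0.00481). RPL5 had a log2 fold change of 0.09 and did not pass (SE 0.14, edgeR adjusted p = 0.632). The stalk proteins, which recruit elongation factors, all rose, with log2 fold changes of 0.55 for RPLP0, 0.39 for RPLP1 and 0.69 for RPLP2. RPS6, the substrate of the S6 kinases, had a log2 fold change of 0.32 (edgeR adjusted p = 0.126), and RPS19, mutated in Diamond-Blackfan anaemia, one of 0.40 (edgeR adjusted p = 0.0591). RPL38 rose by 0.57 on the log2 scale and RPS25 by 0.43, whereas RPL10A had 0.37 (edgeR adjusted p = 0.0575). RPSA, also known as a laminin receptor, stood at 1890, 1393 and 1488 TPM on day 4 and 1305, 1659 and 1500 TPM on day 9, with a log2 fold change of −0.08 (edgeR adjusted p = 0.691). RPL6 (−0.01) and RPL10 (0.04) were close to 0 as well.

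**Figure D2:**
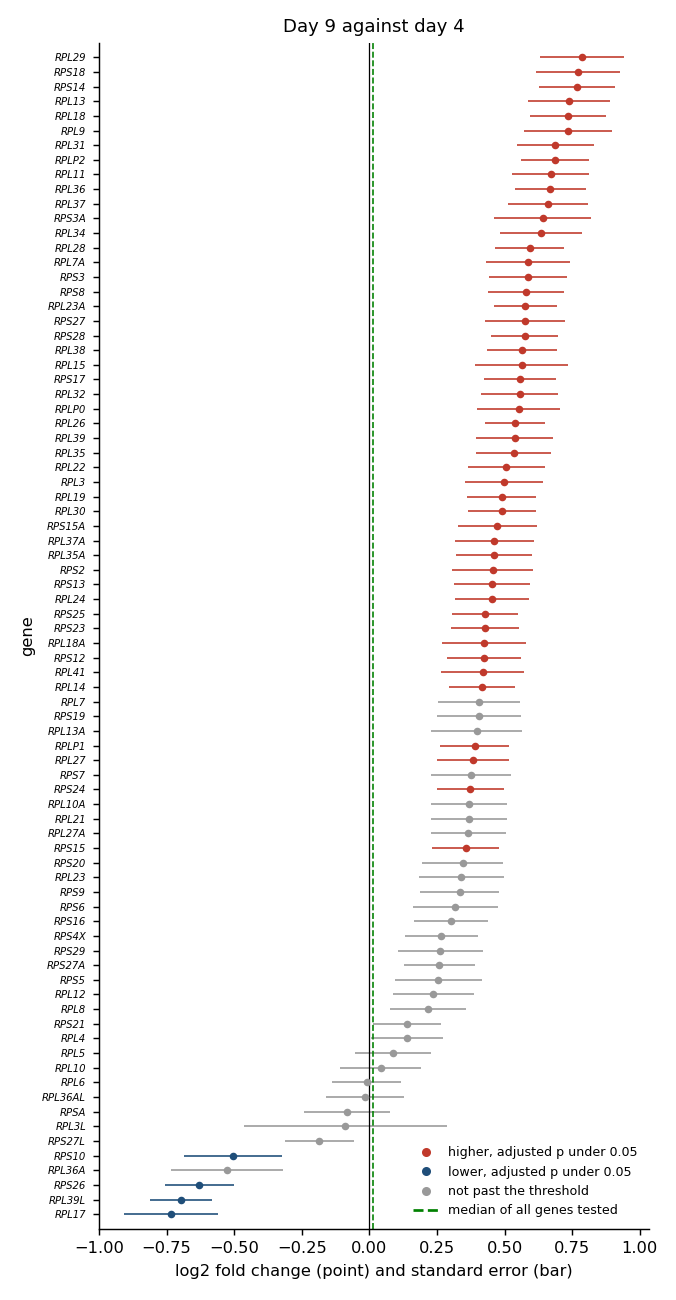
Log2 fold change of the ribosomal protein genes on day 9 against day 4 (x axis, points, with the standard error as a bar), ordered by size (y axis). Red genes were higher and blue genes lower at an adjusted p under 0.05 from edgeR, grey genes did not pass, and the dashed green line is the median of all genes tested, 0.01. Most points lie to the right of it, up to 0.79 for RPL29, and 4 blue genes lie at the bottom.

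Of the 46 members with the pyrimidine run at an annotated start, 32 rose and 1 fell from day 4 to day 9, with a median log2 fold change of 0.46. Of the 18 members without it, 8 rose and 2 fell, with a median of 0.36. These are descriptions of the matched members, and no test was made between them. A pyrimidine stretch that begins off the annotated start, as in RPL36AL, was not counted as a run. Members with no annotated start in the promoter table, RPL39L among them, are in neither group. RPL36A and RPS10 have the run shown above and yet had log2 fold changes of −0.53 (edgeR adjusted p = 0.0619) and −0.50 (edgeR adjusted p = 0.0464).

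RPL17, RPL39L, RPS26 and RPS10 were the 4 members that fell from day 4 to day 9. RPL39L, the paralog of the exit tunnel protein RPL39, lies on chromosome 3 from 187120948 to 187180908 and stood at 106, 113 and 115 TPM on day 4 and at 60.7, 72.7 and 70.5 TPM on day 9 (log2 fold change −0.70 ± 0.11 SE, adjusted p = 0.00134, edgeR). RPS26, at the mRNA exit site of the small subunit, lies on chromosome 12 from 56041351 to 56044697 and stood at 236, 249 and 276 TPM and then at 143, 201 and 145 TPM (log2 fold change −0.63, edgeR adjusted p = 0.00377). For both genes the 3 day 9 libraries lay below the 3 day 4 libraries. RPL17, near the exit of the peptide tunnel, had a log2 fold change of −0.73 (SE 0.17, edgeR adjusted p = 0.00828).

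How many members were called depended on the scale and the libraries. RPL17, RPL39L and RPS26 fell past the threshold in each of the 16 alternatives run for this comparison, and RPS10 in 8 of them. With the counts scaled to the members' own total, which by construction centres the family near 0, 0 members were higher and 9 were lower. With all 15 libraries in one fit, whose shared spread includes day 20, 0 members were called higher and 3 lower. With the sequencing lane as a block, 30 were higher and 3 lower, all among the 53. Without day 4 library 2 the count was 20 higher and 3 lower, and without day 4 library 5 it was 19 higher and 4 lower. The shares of all genes called in these alternatives are not given here. Whether members lost more calls than genes at large is therefore not shown.

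Markers of several cell types moved over the same interval. The pluripotent markers summed to 5137 to 6318 TPM on day 4 and 1738 to 2114 TPM on day 9. The cardiomyocyte markers went from 18.5 to 22.9 TPM up to 310 to 1630 TPM, and the 8 markers of yolk sac or liver endoderm, such as AFP and TTR, from 5.14 to 12.1 TPM up to 439 to 1291 TPM. The 4 epithelial markers, such as EPCAM and KRT8, summed to 1505 to 1591 TPM on day 4 and 2465 to 4128 TPM on day 9. The 5 mesenchymal markers summed to 183 to 293 TPM and then 585 to 1890 TPM, and the 5 endothelial markers to 146 to 354 TPM and then 354 to 740 TPM. No marker was at 0 in all libraries of a day. The part of these cell types in the family's rise was not tested, and in bulk RNA fewer cells of a type and less RNA per cell cannot be told apart.

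**Figure D3:**
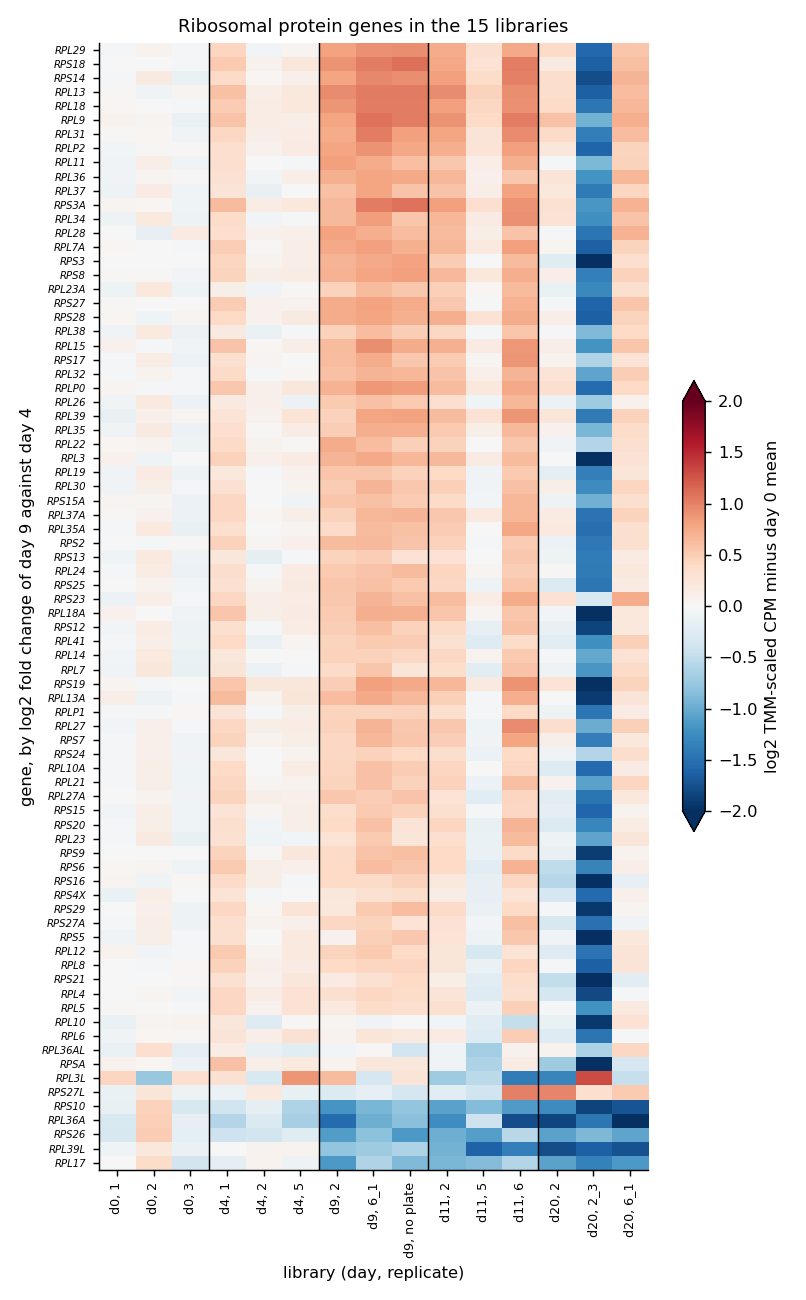
Log2 CPM (counts scaled to a common library size with TMM factors over all 15 libraries) of the ribosomal protein genes (rows, ordered by log2 fold change of day 9 against day 4) in the 15 libraries (columns, by day and replicate), as the difference from the day 0 mean of the gene. Red is above and blue below day 0, with colours held at differences of 2. The day 9 columns are red for most rows, column d20, 2_3 is blue for most rows, and the bottom rows turn blue from day 9 on.

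Day 11, when the study takes the cells to be committed cardiac progenitors, was compared with day 9. None of the 81 members passed with edgeR, DESeq2 or limma, against 1.39% of the 20679 genes called higher and 1% called lower. Only RPL39L and RPL3L had an unadjusted p-value under 0.05, and both fold changes were negative. The median log2 fold change of the members was −0.22, beside 0.00 over all genes, and 77 of 81 were negative. RPL39L stood at 60.7, 72.7 and 70.5 TPM on day 9 and at 60.0, 38.0 and 42.5 TPM on day 11 (log2 fold change −0.59 ± 0.21 SE, adjusted p = 0.198, edgeR). The median was −0.07 without day 11 library 5, which had the lowest family share of that day and a cardiomyocyte marker sum of 24809 TPM against 5627 and 7973 TPM in the other 2. Whether cell types, lane or plate had a part in its low share was not tested. The median of all genes without that library is not given here.

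Day 20 was compared with day 11 and with day 0. Against day 11, none of the 81 members passed with edgeR, DESeq2 or limma and none had an unadjusted p-value under 0.05, while 1.12% of 21398 genes were called higher and 0.435% lower. The median log2 fold change was −0.56, beside 0.07 over all genes, and −0.22 without library 2_3. The median of all genes without that library is not given here. The standard errors of the members had a median of 0.47, against 0.14 for day 9 against day 4, so a change of the size seen from day 4 to day 9 was not detectable here. The lowest scaled count of 75 of the 81 members over all 15 libraries was in library 2_3.

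Against day 0, 5 members fell and 0 rose at an adjusted p-value under 0.05 (edgeR), beside 11.3% of the 21988 genes called lower and 16.1% called higher. The 5 were RPL36A, RPL39L, RPS10, RPL17 and RPS26, and their share, 6.17% of the members, is below that of all genes. The median of the members was −0.14, beside 0.11 over all genes. Without library 2_3 the median was 0.15, the same 5 genes fell, and RPL9 (0.67, edgeR adjusted p = 0.0342) and RPS27L (0.77, edgeR adjusted p = 0.0352) rose. The family median therefore changed sign with that library. The shares of all genes called and their median without library 2_3 are not given here, so the values without it describe the members alone. RPS27L passed in 5 of the 15 alternatives run, of which leaving out library 2_3 was one.

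RPL39L had the clearest course of the 5. It stood at 110, 123 and 82.2 TPM on day 0 and at 33.4, 52.7 and 33.3 TPM on day 20, and all day 20 libraries were below all day 0 libraries (log2 fold change −1.68 ± 0.26 SE, adjusted p = 0.00303, edgeR). RPL36A (chromosome X, 101390824 to 101396155) was measured at 21.0, 32.7 and 17.8 TPM and then at 7.11, 13.4 and 5.95 TPM (log2 fold change −1.74 ± 0.34 SE, adjusted p = 0.00714, edgeR). RPS10 (chromosome 6, 34417454 to 34426069) was measured at 32.9, 45.3 and 22.4 TPM and then at 14.8, 14.1 and 10.5 TPM (log2 fold change −1.59 ± 0.35 SE, adjusted p = 0.0117, edgeR). For both genes, too, the days did not overlap. RPL17 (chromosome 18, 49488453 to 49492508) went from 29.2, 33.8 and 17.3 TPM to 13.5, 15.9 and 12.5 TPM (log2 fold change −1.18 ± 0.30 SE, adjusted p = 0.0212, edgeR). RPS26 stood at 278, 449 and 233 TPM and at 162, 260 and 160 TPM, where library 2_3 of day 20 overlapped day 0 in TPM, though not in scaled counts, (log2 fold change −1.0 ± 0.29 SE, adjusted p = 0.0358, edgeR). Without library 2_3 the 5 log2 fold changes were −1.76 for RPL39L, −1.97 for RPL36A, −1.50 for RPS10, −1.13 for RPL17 and −1.10 for RPS26. RPL39L and RPL36A passed in 14 of the 15 alternatives run, RPS10 in 13, RPL17 in 9 and RPS26 in 4, and none passed when the counts were scaled to the members' total. All 5 had their highest scaled count of the 15 libraries in day 0 library 2. Without that library the log2 fold changes were −1.62 for RPL39L, −1.53 for RPL36A, −1.38 for RPS10, −1.04 for RPL17 and −0.76 for RPS26. The count of 5 was 3 without day 0 library 1, 2 without day 0 library 2 and 3 without day 0 library 3.

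**Figure D4:**
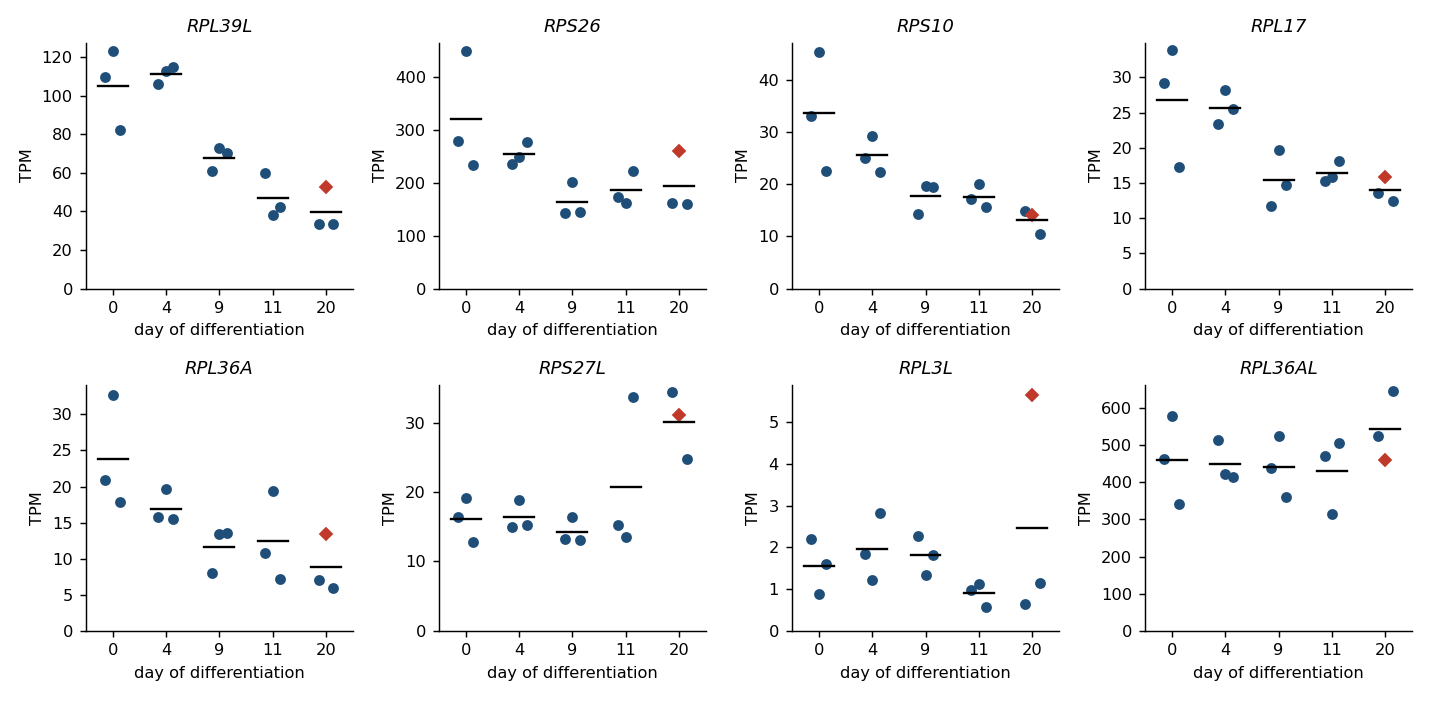
Deposited TPM (y axis, from 0) of 8 ribosomal protein genes by day of differentiation (x axis). Points are libraries, black lines are means of 3, and red diamonds mark day 20 library 2_3. RPL39L falls from between 82.2 and 123 TPM on day 0 to between 33.3 and 52.7 TPM on day 20, RPS26, RPS10, RPL17 and RPL36A are also lower on average, and RPS27L is at 24.7 to 34.4 TPM on day 20.

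Across the 5 days in one fit of 15 libraries, the same 5 genes were the members that differed between days (edgeR, adjusted p from 1.1e-05 for RPL39L to 0.00364 for RPL36A), against 50.4% of the 24767 genes tested. Without library 2_3, 37 members differed, and these included the 5. Without day 20 library 6_1, 18 members differed. The 50.4% belongs to the fit of 15 libraries. The shares of all genes called in the smaller fits are not given here, so these counts describe the members alone.

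As a share of the members' own total, most genes moved little. The highest geometric day mean of a gene's share exceeded the lowest by a median of 1.23-fold, by less than 1.5-fold in 68 of 81 members and by 2-fold or more in 8. The 8 were RPS27L (3.59-fold), RPL36A (3.27), RPL39L (3.19), RPS26 (3.07), RPS10 (2.94), RPL3L (2.80), RPL17 (2.75) and RPL36AL (2.10). Without library 2_3 the median was 1.17-fold, 71 members stayed under 1.5-fold and 7 reached 2-fold, as RPL36AL was then at 1.77-fold, RPS27L at 2.73-fold and RPL3L at 2.54-fold. Of the total, RPS26 made up 0.344% ± 0.103 on day 0 and 0.109% ± 0.011 on day 9, and RPSA 2.72% ± 0.15 and 2.04% ± 0.06 (SD, n = 3 each).

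The balance between paralogs shifted to unequal degrees over the days, and is given per length, in TPM, with no test of the ratios. RPL39L amounted to 17.5%, 18.1% and 14.8% of RPL39 on day 0 and to 13.9%, 16.6% and 14.6% on day 4. On day 9 it amounted to 7.08%, 5.89% and 6.26%, on day 11 to 5.62%, 4.48% and 3.54%, and on day 20 to 4.15%, 14.3% and 3.62%. The 2 earlier days were thus above days 9 and 11 in every library, and on day 20 only library 2_3 came near them. RPL39 rose from day 4 to day 9 (log2 fold change 0.54, edgeR adjusted p = 0.0136) as RPL39L fell.

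RPS27L, a paralog of RPS27, was 0.75% ± 0.12 of RPS27 on day 0, 0.63% ± 0.16 on day 4, 0.37% ± 0.01 on day 9, 0.64% ± 0.25 on day 11 and 1.67% ± 1.04 on day 20 (SD, n = 3 each). The day 20 mean was 1.11% without library 2_3. Its own level was 16.4, 19.1 and 12.8 TPM on day 0, and 34.4, 31.2 and 24.7 TPM on day 20, where all 3 libraries were higher. The test of the counts did not pass with all libraries (log2 fold change 0.66 ± 0.26 SE, adjusted p = 0.0950, edgeR). On day 11 library 6 reached 33.7 TPM, beside 15.2 and 13.5 TPM in libraries 2 and 5.

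RPL36AL, an autosomal copy of RPL36A, had the higher deposited TPM of that pair. Exons of RPL36A overlap a readthrough gene, as given above, while those of RPL36AL overlap no other gene. The part of this overlap in their ratio was not tested. RPL36AL stood at 461 ± 119 TPM on day 0 and 543 ± 94.8 TPM on day 20 (SD, n = 3), with a log2 fold change of 0.03 (SE 0.31, edgeR adjusted p = 0.954). The log2 ratio of RPL36AL to RPL36A was 4.29 ± 0.16 on day 0 and 6.02 ± 0.85 on day 20 (SD, n = 3), or 6.48 without library 2_3, while RPL36A fell as described above.

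RPL3L, the striated muscle form of RPL3, stayed at the edge of detection. Between 10 and 61 counts per library fell on it, 405 in all. Its level was 0.579 to 2.82 TPM in the 14 libraries other than day 20 library 2_3, where it was 5.64 TPM. It amounted to 0.08% to 0.16% of RPL3 on day 0. On day 20 it amounted to 0.05%, 1.21% and 0.07% of RPL3, in the order of libraries 2, 2_3 and 6_1. Library 2 of day 20, with a cardiomyocyte marker sum of 24780 TPM, thus held 11 counts of RPL3L. No comparison of RPL3L between days passed the test.

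Of the paralogs outside the rule, RPL22L1 was 44.9% ± 24.4 of RPL22 on day 0, 23.8% ± 5.3 on day 4, 12.2% ± 2.9 on day 9, 12.6% ± 0.3 on day 11 and 22.9% ± 12.2 on day 20 (SD, n = 3 each), or 16.0% on day 20 without library 2_3. Its log2 fold change of day 9 against day 4 was −0.43 and did not pass (edgeR adjusted p = 0.0807). RPL26L1 was 40.3% ± 2.5 of RPL26 on day 0, 24.9% ± 1.3 on day 9 and 49.3% ± 8.9 on day 20 (SD, n = 3 each), with no overlap between day 9 and the other days. Its day 20 mean was 45.9% without library 2_3. RPL7L1, an assembly factor in spite of its name, was 8.91% ± 1.65 of RPL7 on day 0 and 5.71% ± 0.41 on day 9 (SD, n = 3).

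**Figure D5:**
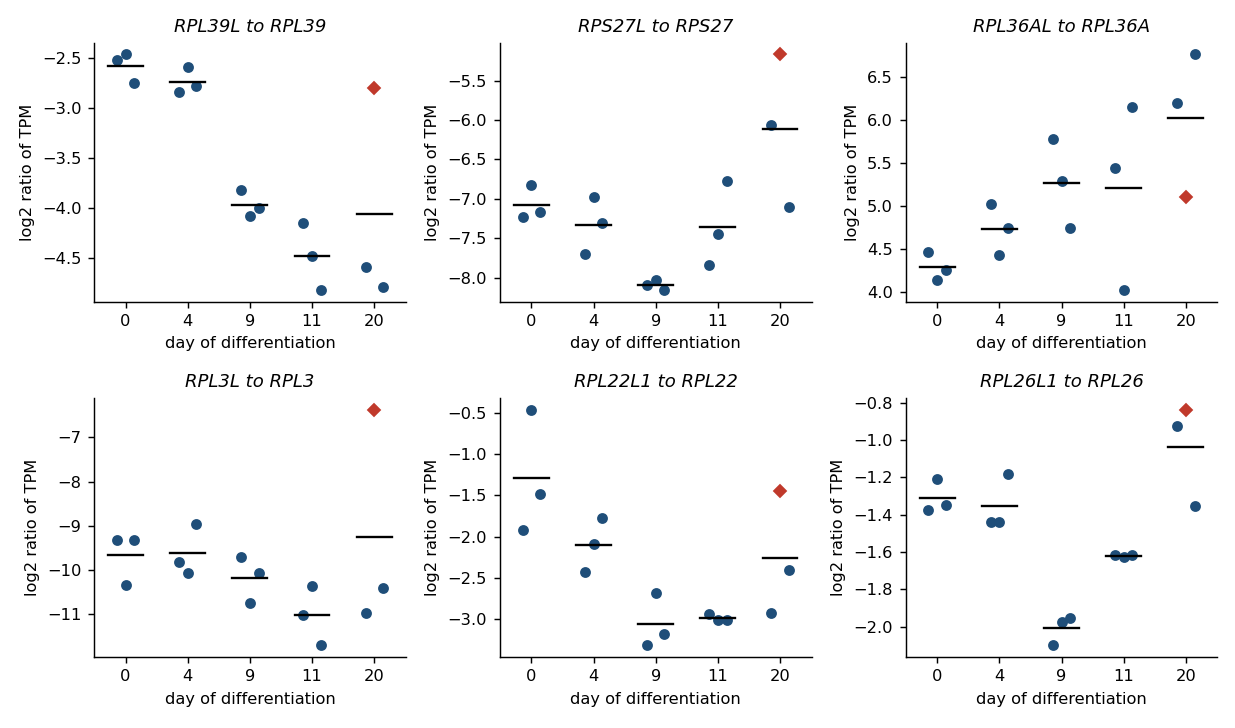
Log2 ratio of the TPM of a paralog to that of its partner (y axis) by day of differentiation (x axis) for 6 pairs. Points are libraries, black lines are means of 3, and red diamonds mark day 20 library 2_3. The ratio of RPL39L to RPL39 drops from a mean of −2.74 on day 4 to −3.97 on day 9, and library 2_3 lies above the other day 20 libraries in every pair except RPL36AL to RPL36A.

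The genes that make, regulate or use ribosomes were described by lists, whose choice followed earlier results of these data. Of 56 ribosome biogenesis factors, 29 were lower and 4 higher on day 9 than on day 4, with a median log2 fold change of −0.38, beside 0.01 over all genes, in the interval in which 49 of the structural proteins rose. These are 51.8% lower and 7.14% higher, beside 24.7% and 24.3% of all genes. With all 15 libraries in one fit, 0 were higher and 9 lower. The smallest adjusted p-values were those of DDX21, a nucleolar helicase (−1.14), EFL1, which helps release EIF6 from the large subunit (−0.75), and BOP1, a large subunit processing factor (−1.09). On day 20 against day 0, 27 of the 56 were lower and 1 higher, with a median of −1.11 beside 0.11 over all genes, so that 48.2% were lower beside 11.3% of all genes. Of the 56, 24 were lower and 2 higher without library 2_3. Without day 0 library 2 the counts were 12 lower and 1 higher, and without day 0 library 3 they were 15 lower and 0 higher. Without day 20 library 6_1 they were 16 lower and 1 higher. For this list and those below, the shares of all genes called in such alternative fits are not given here. Their counts cannot be set beside all genes. NOP56, a core protein of box C/D small nucleolar ribonucleoproteins, stood at 209, 400 and 168 TPM on day 0 and at 64.6, 72.7 and 58.2 TPM on day 20, with no overlap (log2 fold change −2.23 ± 0.36 SE, adjusted p = 0.00355, edgeR; −2.17 without library 2_3).

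Among 20 tested translation factors and other genes with TOP mRNAs, 7 were higher and 2 lower on day 9 than on day 4, with a median log2 fold change of 0.32 beside 0.01. These are 35% higher and 10% lower, beside 24.3% and 24.7% of all genes. Without day 4 library 5 these counts were 2 higher and 1 lower, without day 4 library 2 they were 3 and 2, and with all 15 libraries in one fit both were 0. EIF3F, an initiation factor subunit, rose by 0.73 on the log2 scale and TPT1 by 0.60. EEF1A2, the muscle and nerve form of elongation factor 1A, fell by 1.35 in that interval and rose by 2.46 from day 0 to day 20 (edgeR adjusted p = 0.0203). On day 20 it stood at 1010, 483 and 215 TPM, against 47.2 to 126 TPM on day 0. Its log2 fold change was 1.52 without day 20 library 2 and 2.67 without 2_3, and it did not pass without day 0 library 1, 2 or 3 (edgeR adjusted p = 0.0573, 0.0994 and 0.0773).

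Of 16 host genes of small nucleolar RNAs, 7 were higher and 1 lower on day 9 than on day 4 (43.8% and 6.25%, beside 24.3% and 24.7% of all genes), with a median log2 fold change of 0.30 beside 0.01. They were led by SNHG7 (0.99) and EPB41L4A-AS1 (1.39), while SNHG17, the one that was lower, fell by 1.36 on the log2 scale. Of 78 mitochondrial ribosomal proteins, which are encoded by other genes and serve the mitochondrial ribosome, 6 were higher and 17 lower (7.69% and 21.8%, both below the shares of all genes), with a median of −0.13, and without day 9 library 2 these counts were 2 and 6. Of 19 regulators of ribosome production, 3 were higher and 2 lower (15.8% and 10.5%, both below the shares of all genes), and 1 and 2 without any 1 of the day 4 libraries. MTOR (−0.76) was among the lower ones. From day 0 to day 20, CDKN1A, an inhibitor of cyclin-dependent kinases, rose from 10.6, 8.71 and 10.1 TPM to 525, 65.7 and 182 TPM, with no overlap but a wide spread on day 20 (log2 fold change 4.55 ± 0.80 SE, adjusted p = 0.00497, edgeR). Its log2 fold change was 3.38 without day 20 library 2 and 5.04 without 2_3, and it passed in both cases.

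Among the genes whose log2 CPM was most like the family mean were RACK1, a protein of the small subunit itself (Pearson r = 0.99), RPS2P5, a pseudogene (0.99), NACA, part of the nascent chain complex (0.97), and ENSG00000244313, a processed pseudogene (0.97). They were ranked over 15 libraries among 3631 other genes with a mean of at least 50 TPM. Without library 2_3 these values were 0.96, 0.96, 0.93 and 0.89 over 14 libraries, and the points share day, lane and depth.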

How the data were processed

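The authors aligned paired-end reads of rRNA-depleted total RNA to GRCh38 with STAR 2.5.2b counted them per gene with featureCounts 1.5.1 and deposited the raw counts, leaving out ribosomal RNA and mitochondrial genes. The kit marks strand, but the strand setting and the handling of reads that match several places are not given in the sources used here. They deposited TPM as well, for which the gene lengths are not given. Lane, RIN (a score) and the fraction of reads mapped uniquely came from a table the authors deposited. Columns were matched to samples by name, and none was left over.

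Gene symbols, biotypes and exons came from GENCODE v44. The differential test was that of edgeR 4.0.16 under R 4.3.3, after filterByExpr (counts of at least 10, totals of at least 15) and TMM, as a robust two-sided quasi-likelihood test, with each fit holding only the 6 libraries of the 2 days compared. The comparison over the 5 days used all 15 libraries. The standard error is the log2 fold change divided by the square root of F. Library totals lay between 11990302 and 33469703 with a median of 22867831, and depth as well as replicate spread sets each standard error. The fits were tested on simulated data. Implied gene length is the ratio of counts to TPM, scaled to GENCODE exon lengths. The alternatives were DESeq2 1.42.0, limma 3.58.1 on log2(TPM + 1) and log2(TPM + 0.1), upper-quartile factors, library size alone, scaling to the members' total, no filter, 1 fit of all 15 libraries, the 20 most counted other genes left out, plate and lane blocks, and each library left out.

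The members, gene lists and tests were chosen with earlier results of these data known. Named were paralog pairs, the largest called changes (up to 5 in each direction), the 5 highest and lowest levels, members of known role, up to 3 genes per list with the smallest adjusted p-value and the 5 genes most like the family. FAU and the Y-linked paralog of RPS4X were kept out of the members by the rule. Values of some genes, 1 member among them, are counted in the totals but are not reported by name here. RPL9, named for day 20 without library 2_3, RPL6 and NOP56 with its values per library were chosen after their values were seen.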

Additional observations from a re-analysis of the deposited data

How the results depend on the processing

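In the comparisons of days 4 and 0, 11 and 9, and 20 and 11, the count of members called was 0 in every alternative run. For day 9 against day 4 it was 53, and 9 scaled to the members' total, 3 with all 15 libraries in one fit and 33 with the lane as a block, and it ranged from 23 to 62 with 1 library left out. For day 20 against day 0 it was 5, and 0 scaled to the members' total, and ranged from 2 to 7 with 1 library left out. Over the 5 days it was 5, and 9 with DESeq2, 31 with upper-quartile factors, 53 by library size alone, 12 and 13 with limma on log2(TPM + 1) and log2(TPM + 0.1), and 5 to 37 with 1 library left out. The shares of all genes called under the alternatives are not given here, so these counts cannot be set beside them. The causes were not tested. Plate numbers 2 and 6 recur on days 9, 11 and 20. Libraries of the same plate number had correlations of deviations from the day means of 0.10 and 0.30 between days 9 and 11, and of −0.14, 0.01 and 0.35 between days 11 and 20, so the numbers do not establish pairs. With the plate number as a replicate block, 0 members were called in both comparisons. No plate block could be fitted for the comparisons in which fewer than 2 numbers were shared or the day 0 names gave none.

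The family share in TPM was 6.32%, 7.52%, 10.1%, 9.00% and 6.26% on days 0, 4, 9, 11 and 20, and without genes of implied length under 200 bases it was 7.41%, 8.32%, 11.7%, 9.83% and 6.70%. With the 20 most counted other genes left out of the total, the day 0 share was 5.14%. With 1 library left out, the share ranged from 4.77% to 4.98% on day 0, 5.16% to 5.83% on day 4, 7.70% to 8.12% on day 9, 6.27% to 7.34% on day 11 and 3.53% to 5.15% on day 20. The median of all genes moved by more than 0.1 in day 20 against day 0, from 0.11 to 0.23 by library size alone, and in day 20 against day 11, from 0.07 to 0.18 with upper-quartile factors. Among the paralog ratios, the mean log2 ratio of RPL3L to RPL3 on day 20 was −9.25, and −10.69 without library 2_3. The list counts, the single genes and the day 20 values without library 2_3 were recomputed under alternatives chosen after seeing the data. Depth limits RPL3L most, with 10 to 61 counts per library.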
